A study of Mus musculus with 12 samples.

Results

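The libraries described here came from hair follicle stem cells that lacked Foxc1, a forkhead transcription factor, and the question was which genes differed between the resting and the growth phase of the hair cycle in these cells. Members were defined by their labels: 4 telogen and 2 anagen knockout (KO) libraries, 6 of the 12 libraries of the series. Earlier results of these data were known when they were chosen. The remaining 6, wild-type (WT) libraries of the same stages, 3 of telogen and 3 of anagen, served as the reference. All mice carried K14-H2BGFP, a green fluorescent histone under the keratin 14 promoter, and floxed Foxc1 alleles (Foxc1 fl/fl). KO mice carried K14Cre in addition, a recombinase under the same promoter, which is active in the basal cells of the whole skin epithelium and not in bulge cells alone. WT mice had the floxed alleles and no Cre, so no group had unmodified Foxc1 alleles. Anagen KO replicates 1 and 2 were titled P29 and P31 (postnatal days) and both were female. Telogen KO replicates 1, 2 and 3 were titled P47 and replicate 5 P43, although its age label gave 47 days. Replicate 2 was male and the other telogen KO libraries were female. Anagen WT replicates 1, 2 and 3 were titled P29 (female), P30 (male) and P31 (male, with an age label of 43 days), and telogen WT replicates 1, 3 (both female) and 4 (male) P47. Cells were freed from back skin with enzymes and sorted as positive for H2BGFP, CD34 and CD49f and negative for Sca-1. Whether replicates came from different mice is not stated, so every p-value measures the spread between these samples, which may be technical.

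The bulge is the part of the follicle that holds stem cells. In telogen these cells are quiescent, held there by BMP and FGF signals, several of which come from the inner bulge layer that surrounds the old club hair. At the start of anagen, WNT and hedgehog activity rises, the hair germ and then the bulge divide, and the lower follicle makes a new hair shaft with its inner root sheath. Stem cells return to quiescence as anagen goes on. Foxc1 is known in this tissue as a factor of activated stem cells that helps to restore quiescence and to keep the old hair anchored.

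Each stage was deposited as a table of its own, so telogen and anagen differed in table as well as in stage, and stage and table cannot be told apart in any result below. Over the 37931 genes named in both tables, the anagen KO libraries held 37586484 and 28115310 counts and the telogen KO libraries 2658749 (replicate 5) to 11807099. Levels are given in CPM, a gene's counts scaled to the library total over these shared genes. Labels and content were compatible as far as epithelial cells go. The summed level of 10 stem cell markers was 22593 and 26169 CPM in anagen KO and 24871 to 36172 CPM in telogen KO. These markers include Krt14, whose promoter is active in basal cells of the whole skin epithelium. Their sum thus cannot tell bulge cells from other basal cells. For comparison, 7 immune markers summed to 70.7 to 264 CPM over all 6 libraries. Telogen KO replicate 2 stood apart in other cell types: 7 fibroblast and dermal papilla markers summed to 5106 CPM there against 520 to 1584 CPM in the other telogen KO libraries, and 4 markers of the layers above the basal epidermis to 4748 against 724 to 1139 CPM. Ly6a, which encodes the Sca-1 used to exclude cells, was at 7.11, 56.0, 6.68 and 9.03 CPM in telogen KO replicates 1, 2, 3 and 5, the order used throughout, and at 5.05 and 5.69 CPM in anagen KO replicates 1 and 2.

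Foxc1 itself (chromosome 13, 31806633 to 31812476 on the plus strand, GENCODE M21 on build GRCm38) was close to absent in both KO groups and less so in telogen. It was at 0.213 and 0.285 CPM in anagen KO, 8 counts in each library, and at 2.29, 3.11, 0.911 and 1.13 CPM in telogen KO, which stood for 27, 35, 9 and 3 counts. Anagen WT libraries held 35.8, 119.8 and 48.8 CPM and telogen WT libraries 43.9, 59.2 and 61.2 CPM, so every KO library lay far below every WT library. The KO groups did not overlap, and the log2 fold change of telogen over anagen was 2.91 ± 0.85 (± standard error, here and below) with an edgeR adjusted p of 0.0322. The call was lost without anagen KO replicate 1 (edgeR adjusted p = 0.218) or 2 (0.192).

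The stage change in KO cells was broad and mostly in the same direction as in WT cells. Of 12771 genes tested in KO, edgeR called 1301 higher in telogen (10.2%) and 1534 lower (12%), 22.2% in all, and 2291 of those called differed by more than 1 on the log2 scale. Of 12718 genes tested in WT, 1724 were higher (13.6%) and 2024 lower (15.9%), 29.5% in all. The median log2 fold change over all genes tested was -0.03 in KO and -0.10 in WT. Of the genes higher in KO telogen, 801 were also called higher in WT, which is 61.6% of the KO list and 46.5% of the WT list. Of the lower genes, 1066 were called in both, 69.5% of the KO list and 52.7% of the WT list. No gene was called in opposite directions. Of the 1265 genes called higher in KO that were tested in WT, 1214 had the same sign there, and of 1500 called lower, 1481 did. KO and WT comparisons share no library but share the pair of tables, so any difference between the tables enters both in the same way. In sorted bulk samples such as these, fewer cells of a type and less RNA per cell cannot be told apart. The plot of the KO stage change against the WT stage change shows this spread.

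**Figure D1:**
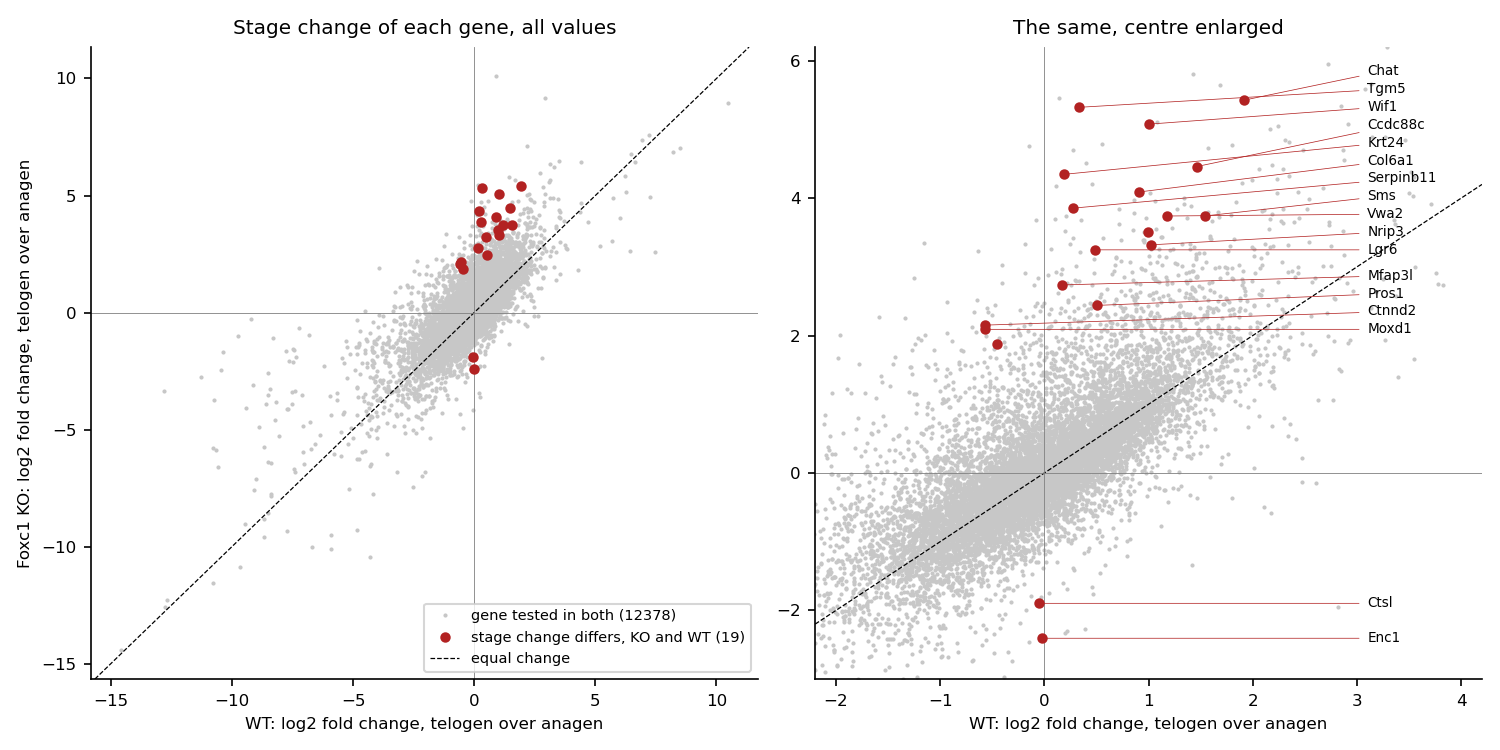
Log2 fold change of telogen over anagen for 12378 genes tested in both genotypes, WT on the x axis and Foxc1 KO on the y axis, for all values (left) and with the centre enlarged (right). Red points are the 19 genes whose stage change differed between KO and WT, of which 17 lie above the dashed line of equal change and 2 below it.

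A call in KO and none in WT is not by itself a difference, so the difference of the stage changes was tested over all 12 libraries. Of 13193 genes, 17 had a higher stage change in KO than in WT (0.129%) and 2 a lower one (0.0152%), 0.144% in all, with 841 at an unadjusted p under 0.05. Of the 500 genes called higher in KO and not in WT, 10 were among these, and of the 468 called lower in KO and not in WT, 2 were. In all 17 genes with the higher stage change, both anagen KO libraries lay below every anagen WT library, and the anagen KO group had the lowest mean of the 4 groups. This is a description, since the same values gave the call. In telogen the KO and WT libraries of 7 of these genes overlapped, and in 7 others every KO library lay above every WT library.

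Tgm5, a transglutaminase of cornifying epithelium (chromosome 2, 121046111 to 121085841), gave the largest of these differences. It was at 4.79 and 6.33 CPM in anagen KO and 218, 158, 272 and 199 CPM in telogen KO, against 98.4, 298 and 245 CPM in anagen WT and 237, 221 and 277 CPM in telogen WT. Only the anagen KO libraries were low. The KO stage change was 5.32 ± 0.41 and the WT stage change 0.33, a difference of 4.99 ± 0.58 (edgeR adjusted p = 0.00585). Krt24, a keratin gene (chromosome 11, 99279959 to 99285262), had the same arrangement, with 15.1 and 16.1 CPM in anagen KO, 237, 419, 260.5 and 328 CPM in telogen KO, 173, 681 and 260.4 CPM in anagen WT and 375, 374 and 417 CPM in telogen WT. Its difference was 4.15 ± 0.62 (edgeR adjusted p = 0.0229).

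Wif1, which binds WNT ligands outside the cell and blocks them (chromosome 10, 121033960 to 121100650), moved beyond the WT range at both ends. It was at 4.74 and 5.90 CPM in anagen KO and 149, 200, 138 and 214 CPM in telogen KO, while anagen WT libraries held 11.9, 22.4 and 11.4 CPM and telogen WT libraries 23.2, 20.8 and 40.7 CPM. The anagen KO libraries were thus the lowest and the telogen KO libraries the highest of all 12, with no overlap between any KO group and either WT group. The KO stage change was 5.08 ± 0.33 (edgeR adjusted p = 1.07e-05) and exceeded that in WT by 4.06 ± 0.48 (edgeR adjusted p = 0.00585).

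Lgr6, a receptor that marks stem cells of the isthmus above the bulge, was at 3.01 and 4.45 CPM in anagen KO and 34.2, 56.0, 28.1 and 21.1 CPM in telogen KO, and its stage change was 2.75 higher than in WT on the log2 scale. The collagen VI chain Col6a1, which is abundant in fibroblasts, rose from 16.1 and 10.6 CPM to 198, 165, 265 and 240.3 CPM, 3.17 more than in WT. Of the other genes with a higher stage change, Chat encodes choline acetyltransferase (3.50), Serpinb11 a serpin (3.57), Ccdc88c a regulator of WNT signalling (2.99) and Ctnnd2 a delta catenin (2.71). Moxd1 (2.65), Vwa2 (2.55), Mfap3l (2.55), Nrip3 (2.29), the spermine synthase gene Sms (2.19) and Pros1, which encodes protein S (1.93), also belonged to the set. These values are differences of log2 fold changes, KO minus WT. Among them, Ctnnd2 and Moxd1 had WT stage changes of the opposite sign that did not pass (-0.57 and -0.57).

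Both genes with a lower stage change in KO were low in telogen KO. Enc1, an actin-binding protein of the kelch family, was at 97.6 and 193 CPM in anagen KO and 31.1, 26.2, 26.9 and 21.4 CPM in telogen KO, against 122, 65.4 and 81.3 and 95.4, 74.7 and 70.9 CPM in anagen and telogen WT. The lysosomal protease gene Ctsl was at 958 and 893 CPM in anagen KO and 290.5, 194, 247 and 225 CPM in telogen KO, against 619, 693 and 569 and 655, 581 and 419 CPM in WT. For both genes the telogen KO libraries lay below all 8 others and the WT stages overlapped. The differences were -2.39 ± 0.38 (edgeR adjusted p = 0.0229) and -1.86 ± 0.33 (0.0428). The calls of these 19 genes rest on both anagen KO libraries: without replicate 1 edgeR called 1 of all genes tested, Enc1, and without replicate 2 none, with 560 higher and 243 lower, and 563 higher and 212 lower, at an unadjusted p under 0.05. With all 12 libraries DESeq2 called 133 higher and 18 lower. A replicate block by title day in anagen and replicate number in telogen was also fitted, chosen after seeing the data. With it edgeR called 0 higher and 0 lower, with 700 and 372 at an unadjusted p under 0.05.

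**Figure D2:**
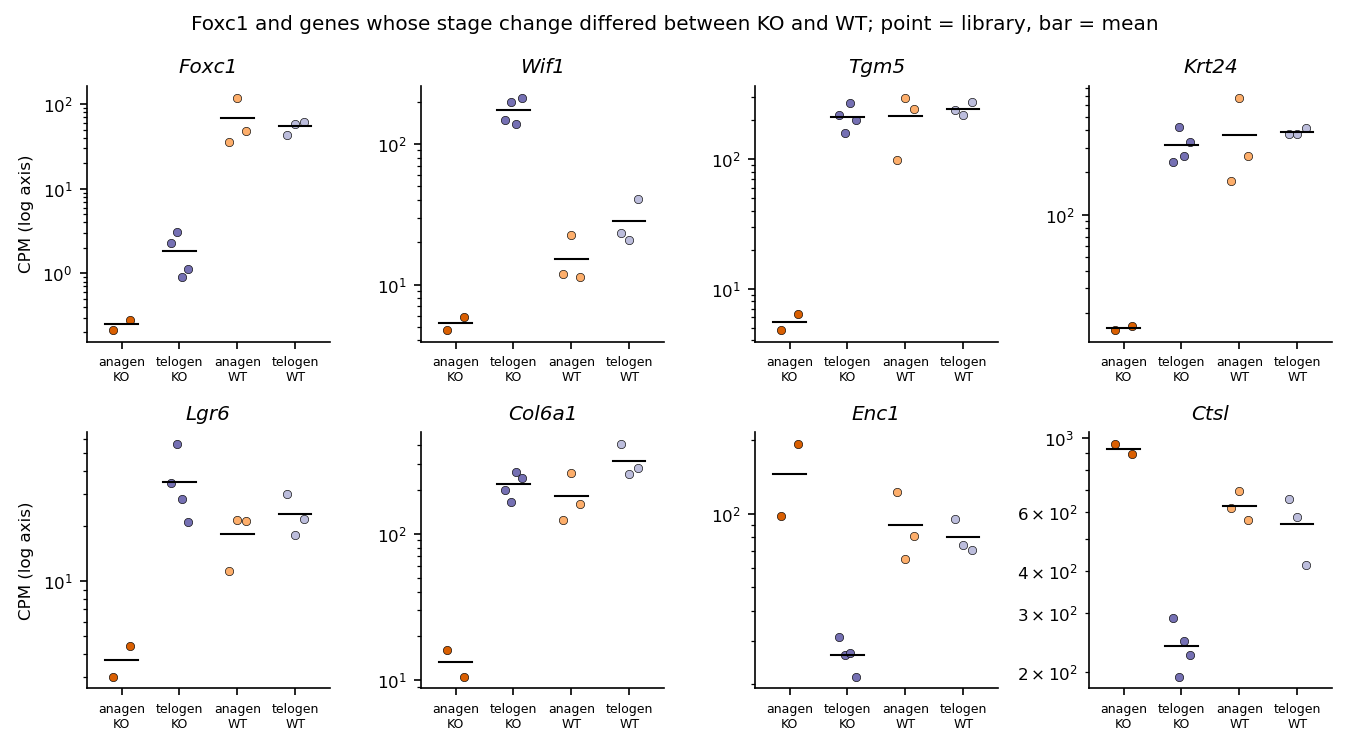
CPM on log axes of Foxc1 and 7 of the 19 genes whose stage change differed between genotypes, in the 2 anagen KO, 4 telogen KO, 3 anagen WT and 3 telogen WT libraries (points, with bars for group means). For Tgm5, Krt24, Lgr6 and Col6a1 the anagen KO libraries alone are low, Wif1 is lowest in anagen KO and highest in telogen KO, and Enc1 and Ctsl are low in telogen KO.

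Among the largest rises in KO telogen were genes better known from nerve and eye than from skin. The genes in this paragraph and the next were named for their size and for a lack of overlap between the KO groups, so neither is a result. Myoc, which encodes the extracellular protein myocilin, was at 1.20 and 0.427 CPM in anagen KO and 211, 74.7, 86.5 and 79.4 CPM in telogen KO (log2 fold change 7.12 ± 0.72, edgeR adjusted p = 0.000285). Replicate 1 was the highest of the telogen libraries, and all 4 were far above both anagen libraries. The sorting receptor Sorcs3 rose from 0.293 and 0.391 to 37.2, 21.4, 22.2 and 27.1 CPM, gamma-synuclein (Sncg) from 0.160 and 0.320 to 16.5, 24.7, 11.3 and 17.7 CPM, and the guanine nucleotide exchange factor Ngef from 0.692 and 0.285 to 31.5, 15.3, 38.5 and 33.9 CPM. Their log2 fold changes were 6.33, 6.2 and 5.95, against 3.15, 3.29 and 2.72 in WT, and the differences did not pass (edgeR adjusted p = 0.451, 0.378 and 0.0783). Chat (5.43), Fcgbp, which encodes a mucin-like protein (5.34), and the adenylate cyclase Adcy1 (5.12) rose as well, besides Tgm5 and Wif1. The other 3 of the 12 largest rises were pseudogenes of ribosomal protein genes (Rpsa-ps10, Rps10-ps1 and Rps19-ps6). Rpsa-ps10 had 0 counts in anagen KO and was at least 150-fold higher in telogen KO against a floor of 3 counts over the group. Such copies share sequence with their parent genes, so reads can fall on either and their levels are uncertain. Of 90 processed pseudogenes tested, 23 were higher (25.6%) and 4 lower, against 10.4% and 12.4% of 11511 protein-coding genes.

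Among the 12 largest falls, 8 features had no count in any telogen KO library. Against a floor of 3 counts over the group, they were lower by at least 246-fold for Dio3, the deiodinase that inactivates thyroid hormone, by at least 170-fold for the uroplakin Upk1b and by at least 125-fold for the pantetheinase Vnn1. Bounds were 432-fold for the histone gene Hist1h2bm, 84.9-fold for Pcp4, 66.3-fold for Sh2d6 and 64.5-fold for the olfactory receptor gene Olfr1033. Dio3 was at 10.9 and 33.9 CPM in anagen KO. The last of the 8, mmu-mir-6236, was at 123 and 206 CPM in anagen KO and had no count in telogen WT either. Ggt1, a gamma-glutamyltransferase of glutathione breakdown, had 6694 counts in anagen KO and 3 in telogen KO, a ratio of 1209 with a counting interval of 413 to 5862 (95%, counting error only). Cmah, an enzyme of sialic acid synthesis, fell from 617 and 608 to 2.37, 5.07, 1.62 and 4.14 CPM, with a log2 fold change of -7.58 and an edgeR adjusted p of 1.68e-06. Fam211b (-7.55 on the log2 scale) and Lrrn2 (309 counts in anagen KO and 1 in telogen KO) completed the 12. EdgeR called all 12 lower in WT telogen as well, with -9.09 for Cmah and -5.92 for Ggt1.

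The gene lists below are described by how many tested members passed in each direction, to be read against 10.2% higher and 12% lower over all genes in KO. The lists were chosen with earlier results of these data known, so their counts are no independent evidence. Of 215 named or listed genes called in KO, 116 were still called by edgeR without each of the 6 KO libraries in turn. Some of the 215 were named for large changes without overlap. No such share is given over all 2835 genes called in KO, so the count describes these genes alone.

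**Figure D3:**
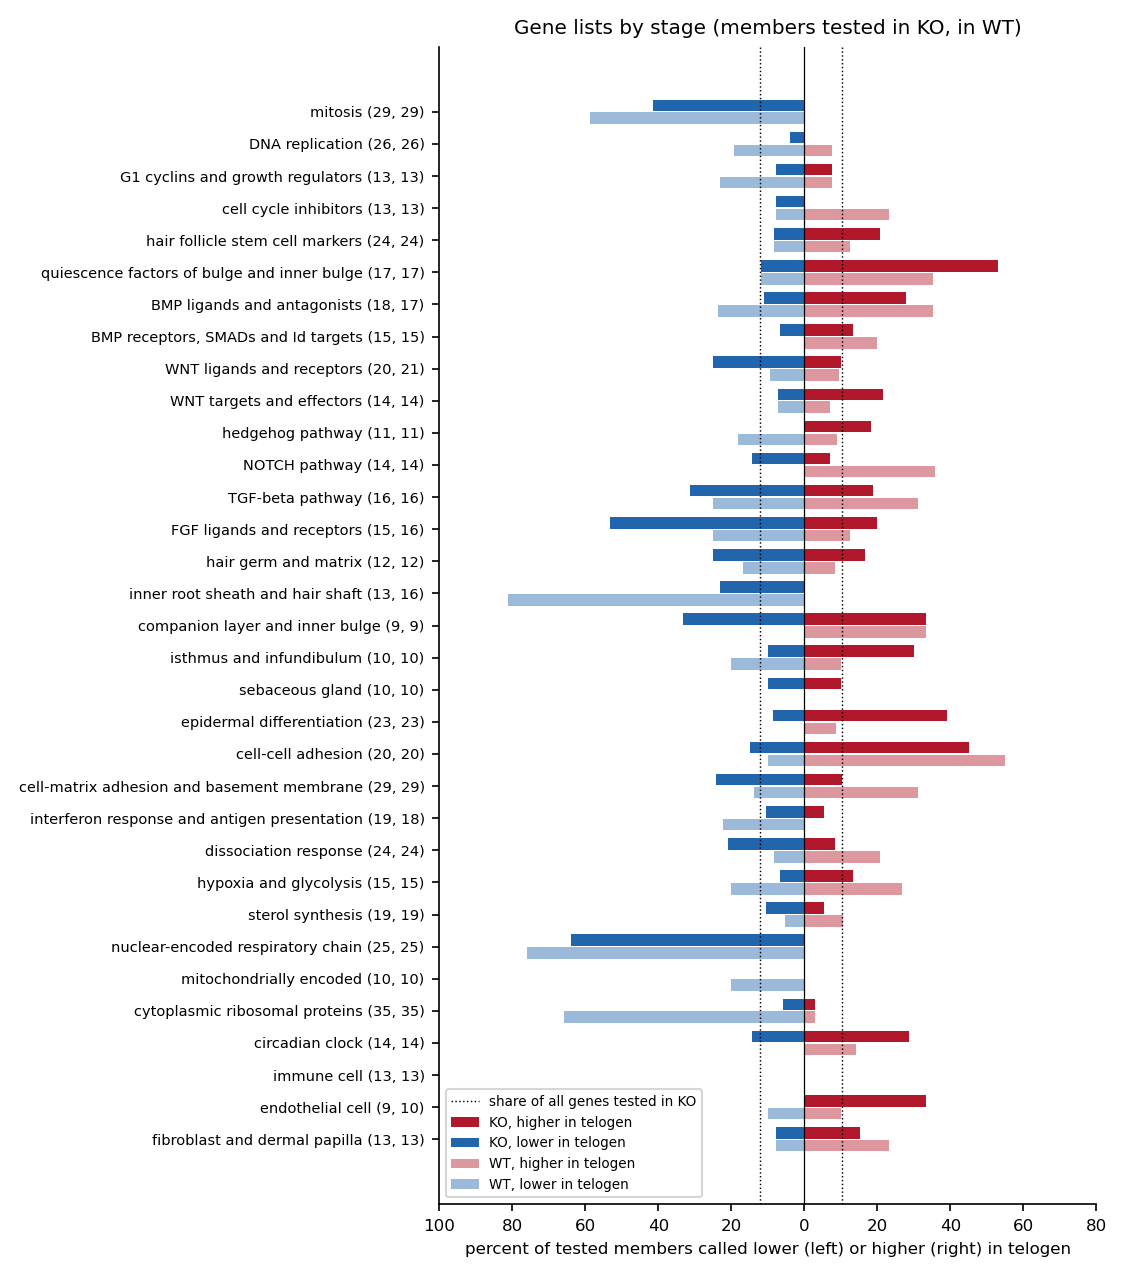
Share of the tested members of each gene list that edgeR called higher (right) or lower (left) in telogen, in KO (dark bars) and WT (light bars), for lists with at least 9 members tested in KO. Numbers in parentheses give the members tested in KO and WT, and dotted lines mark the shares over all genes in KO. Mitosis and nuclear-encoded respiratory chain genes are called only lower, and more quiescence factors and cell-cell adhesion genes are called higher than lower.

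Krt15, S100a4 and Lgr6 rose among the stem cell markers, and Nfatc1 and Fgf18 among the quiescence factors. Of 24 stem cell markers, 5 were higher (20.8%) and 2 lower (8.33%), with a median log2 fold change of 0.18. Krt15, the bulge keratin (chromosome 11, 100131758 to 100135928), was at 1297 and 2263 CPM in anagen KO and 7575, 10803, 5585 and 10653 CPM in telogen KO. All telogen libraries were above both anagen libraries, and the log2 fold change was 2.31 ± 0.37 (edgeR adjusted p = 0.00193). In WT it was 0.44 and did not pass, and the difference did not pass either (edgeR adjusted p = 0.200). S100a4 (2.29) and Lgr6 (3.25) rose too. Cd34, a gene of the sort, was at 286 and 238 CPM and 349.8, 357, 366 and 417 CPM, higher in every telogen library without passing (log2 fold change 0.56, edgeR adjusted p = 0.132). The transcription factor Barx2 fell by 1.94 on the log2 scale, from 232 and 242 to 50, 74.5, 43.9 and 74.8 CPM. Tcf7l1, a TCF factor that represses WNT targets in the bulge, fell by 1.0, a call lost without anagen KO replicate 2 (edgeR adjusted p = 0.169) or telogen KO replicate 5 (0.0520). The regulators Sox9 (-0.43), Lhx2 (0.20) and Lgr5 (0.37) did not pass, and their KO libraries overlapped between stages.

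Of 17 quiescence factors of the bulge and inner bulge, 9 were higher and 2 lower in KO (median 0.78), against 6 and 2 in WT (median 0.36). One of the 9 was Foxc1, the deleted gene, and without it 8 of 16 were higher (median 0.67). Without anagen KO replicate 1 or 2, 6 of these 16 were higher. Nfatc1, a transcription factor of quiescent bulge cells that acts downstream of BMP signals, was at 103 and 62.0 CPM in anagen KO and 352, 355, 316 and 399 CPM in telogen KO. The groups were far apart, with a log2 ratio of telogen to anagen of 2.16 ± 0.30 (edgeR adjusted p = 0.000794) and 1.01 in WT. The difference from WT did not pass by edgeR. Fgf18, a ligand that keeps the bulge at rest (chromosome 11, 33117430 to 33147400), was at 0.293 and 0.320 CPM and 8.55, 5.52, 2.53 and 7.15 CPM, a rise of 4.26 ± 0.69 (edgeR adjusted p = 0.00194). Anagen counts were few, and telogen KO replicate 3 was the lowest of its group. The latent TGF-beta binding protein Ltbp1 rose by 3.06, the forkhead factor Foxp1 by 1.36, the prolactin receptor Prlr by 1.12 and Dkk3 by 0.78, besides Wif1, Bmp2 and Foxc1. The WNT antagonist Sfrp1, a bulge gene, fell by 1.59, from 729.6 and 578 to 124, 157, 257 and 286 CPM, and Tgfb1 fell by 0.90. Bmp6 did not pass (0.33), and its anagen KO libraries differed from each other, at 32.6 and 8.25 CPM, against 23.0, 11, 34.3 and 29.0 CPM in telogen. Calls for Foxp1, Tgfb1, Prlr, Sfrp1 and Dkk3 were each lost without 1 or both anagen KO libraries (edgeR adjusted p from 0.0586 for Prlr to 0.227 for Dkk3), and that for Dkk3 also without telogen KO replicate 1 (0.0949) or 5 (0.0626).

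In the BMP pathway the ligand Bmp2 and the secreted antagonists Nog, Grem1, Fst and Chrdl1 rose. Of 18 ligands and antagonists, these 5 were higher, 2 were lower and 11 did not pass (median 0.58), against 6 and 4 of 17 in WT (median -0.19). The difference between KO and WT was called for 0 members by edgeR and for 3 by DESeq2. At an unadjusted p under 0.05 it was higher for 6 and lower for 0. Bmp2 (chromosome 2, 133552159 to 133562885) was at 9.26 and 12.3 CPM in anagen KO and 163, 106, 263 and 191 CPM in telogen KO, a log2 ratio of telogen to anagen of 4.15 ± 0.48 (edgeR adjusted p = 0.000312). The anagen KO libraries lay below the anagen WT range of 43.5, 52.0 and 50.4 CPM, and WT rose as well, to 272, 291 and 285 CPM (2.68). For Bmp2 the difference of the stage changes, 1.47 ± 0.46, did not pass (edgeR adjusted p = 0.399). Noggin (Nog), which binds BMP ligands and blocks their receptors, rose from 1.68 and 0.960 to 44.7, 38.6, 38.8 and 50.4 CPM (5.05 ± 0.37, edgeR adjusted p = 1.79e-05). Gremlin (Grem1), an antagonist of the same kind, rose from 11.3 and 15.7 to 342, 332, 335 and 494 CPM (4.85 ± 0.37, edgeR adjusted p = 1.96e-05). In both, the telogen libraries were at least an order of magnitude above the anagen libraries. Follistatin (Fst) rose by 2.63. Chordin-like 1 (Chrdl1) had 1 count in anagen KO and 69 in telogen KO, a ratio of 127 with a counting interval of 22.1 to 5103. The protease Bmp1, which cleaves chordin and procollagen, fell by 2.32 (from 169.6 and 225 to 34.3, 46.6, 38.1 and 35 CPM) and Smoc1, which encodes a secreted matrix protein that also antagonises BMP signals, by 3.78. The antagonists chordin (Chrd, -1.78) and Sostdc1 (1.32) did not pass.

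Downstream of the ligands, 2 of 15 receptor, SMAD and Id genes were higher and 1 lower (median 0.14). Smad9, a receptor-activated SMAD, rose from 0.133 and 0.462 to 6.61, 10.4, 6.98 and 7.90 CPM (4.78 ± 0.65, edgeR adjusted p = 0.000726). The type II receptor gene Bmpr2 rose by 1.36, a call lost without anagen KO replicate 2 (edgeR adjusted p = 0.0876). Of the direct BMP target genes, Id1 (-0.07), Id2 (-0.56) and Id3 (0.26) did not pass, and Id4 fell by 0.82. That call for Id4 was lost without any 1 of 4 KO libraries (edgeR adjusted p of 0.0823 to 0.560).

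The WNT feedback inhibitors Axin2 and Nkd1 rose and several receptors fell. Of 14 WNT targets and effectors, 3 were higher, 1, Tcf7l1, was lower and 10 did not pass (median 0.64), and without anagen KO replicate 2, 2 were higher and none lower. Axin2, the feedback inhibitor induced by WNT signals, was at 3.27 and 3.91 CPM in anagen KO and 24.0, 58.5, 14.3 and 17.3 CPM in telogen KO, with replicate 2 the highest (log2 fold change 2.98 ± 0.51, edgeR adjusted p = 0.00294). Nkd1, another induced inhibitor, rose from 1.22 and 2.31 to 27.6, 19.3, 10.3 and 18.1 CPM (3.44). The transcription factor Lef1 rose by 2.07, a call lost without anagen KO replicate 1 (edgeR adjusted p = 0.0541) or 2 (0.0795). In WT the stage changes of Axin2, Nkd1 and Lef1 were 0.93, 1.12 and 0.55, and that of Axin2 passed (edgeR adjusted p = 0.0183). None of their differences between KO and WT passed by edgeR (adjusted p = 0.259 for Axin2). DESeq2 called the difference for 2 genes of the list. Of 20 ligands and receptors, 2 were higher and 5 lower: the ligands Wnt11 (3.92, from 6.54 and 6.86 to 111, 60.8, 125 and 87.6 CPM) and Wnt7b (2.01) rose, and the frizzled receptors Fzd4 (-2.34), Fzd8 (-1.53), Fzd1 (-1.25), Fzd5 (-1.25) and Fzd6 (-0.74) fell. The calls for Fzd8 and Fzd6 were lost without anagen KO replicate 2 (edgeR adjusted p = 0.630 and 0.119) and without other libraries, and 3 members of the list were lower without anagen KO replicate 2 or without telogen KO replicate 1 or 5. Among 5 secreted antagonists tested, Wif1 and Dkk3 rose and Sfrp1 fell.

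In the hedgehog pathway, 2 of 11 genes were higher and none lower by edgeR (median 0.37), while 2 were lower at an unadjusted p under 0.05 and 2 by DESeq2. Gli1, a transcription factor that is itself a target of the pathway, rose from 42.7 and 34.3 to 72.9, 110.2, 91.8 and 104 CPM (1.34 ± 0.25, edgeR adjusted p = 0.00466). Its stage change in WT was 0.07, and the difference did not pass by edgeR. DESeq2 called the difference for 2 genes of the pathway. The co-receptor Cdon rose from 13.8 and 20.3 to 68.0, 104, 77.2 and 89.5 CPM (2.35). The ligand Shh had 79 counts in anagen KO and 2 in telogen KO and was below the expression filter. In the NOTCH pathway, the receptor Notch2 rose (1.19) and the targets Hes1 (-1.35) and Heyl (-3.59) fell among 14 genes. Each of these 3 calls was lost without anagen KO replicate 2 (edgeR adjusted p = 0.208, 0.294 and 0.107) and without other libraries.

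The FGF list had more falls than any other signalling list, with 3 of 15 genes higher and 8 lower (median -0.89), against 2 and 4 of 16 in WT (median -0.35). Fgf5, the ligand known for ending anagen, had 200 counts in anagen KO and 1 in telogen KO, a ratio of 108 with a counting interval of 19.2 to 4300. Etv4, an ETS factor induced by FGF receptors through the MAP kinase pathway, fell by 2.62 on the log2 scale, from 69.8 and 45.2 to 8.47, 13.8, 9.51 and 3.76 CPM (edgeR adjusted p = 0.000565). The feedback phosphatase Dusp6 fell from 877 and 1075 to 452, 431, 326 and 325 CPM (-1.31, edgeR adjusted p = 0.00317). Both anagen libraries were above every telogen library for these genes. The feedback inhibitors Spry4 (-1.68) and Spry2 (-0.89), the ETS factor Etv5 (-1.26), the receptor Fgfr3 (-1.17) and the ligand Fgf21 (-2.13) fell too. Fgf1 rose from 2.31 and 4.27 to 66.3, 25.9, 36.4 and 53.8 CPM (3.85 ± 0.49, edgeR adjusted p = 0.000602), and Fgfr2, the epithelial receptor, by 1.02, beside Fgf18. The calls for Spry4, Spry2, Etv5, Fgf21 and Fgfr2 were each lost without 1 or both anagen KO libraries, with edgeR adjusted p of 0.0908 (Spry2) to 0.506 (Fgf21). In the TGF-beta pathway, 3 of 16 genes were higher and 5 lower (median 0.08): Ltbp1, Ltbp2 (3.0) and the ligand Tgfb2 (2.76) rose, and Ltbp4 (-1.80), Ltbp3 (-1.63), Tgfb1 and the co-receptor Tgfbr3 (-1.05) were among the falls. The calls for Tgfb2 and Tgfbr3 were lost without either anagen KO library (edgeR adjusted p = 0.0735 to 0.184).

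**Figure D4:**
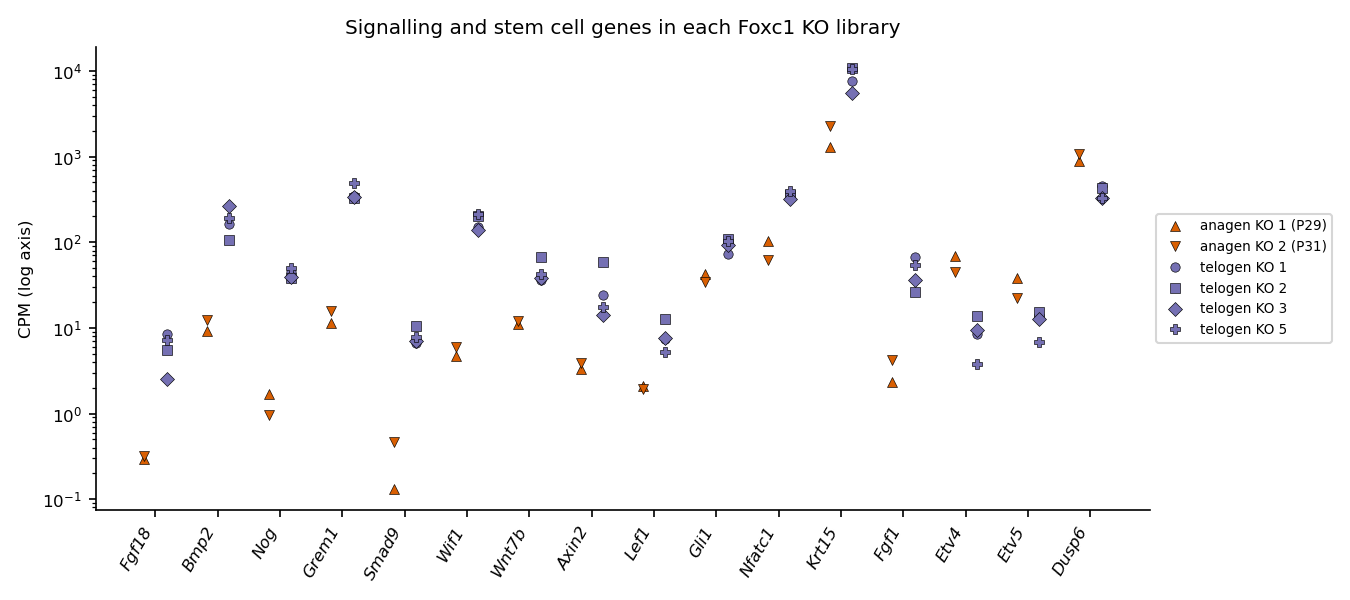
CPM on a log axis of 16 signalling and stem cell genes in each of the 6 KO libraries, anagen in orange and telogen in purple. The groups do not overlap for any of these genes. All were picked from genes called in KO, so the lack of overlap is no result. Genes that did not pass, such as Bmp6, Sox9 and Lgr5, are not shown. Etv4, Etv5 and Dusp6 are higher in anagen and the other 13 genes higher in telogen.

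In KO telogen 12 of 29 mitosis genes were lower, a count that changed with the libraries in the fit. The mitosis list held 12 lower and no higher members of 29 tested (median -1.47), against 17 lower and none higher in WT (median -2.87), and the difference was called for none of them by edgeR or DESeq2 (4 at an unadjusted p under 0.05). Summed over 29 genes, the list was at 1077 CPM in anagen KO replicate 1 (P29), 299 CPM in replicate 2 (P31) and 273 to 360 CPM in telogen KO. Replicate 2 thus lay within the telogen KO range. In WT the same sum was 561, 208 and 136 CPM in anagen and 60.1, 35.7 and 74.1 CPM in telogen. Every telogen WT library thus lay below every telogen KO library. Without anagen KO replicate 1, 1 member was lower and 1 higher (median -0.41), and without replicate 2, 25 were lower (median -2.13). Fewer were also lower without telogen KO replicate 1 (5), 3 (5) or 5 (7) and with all 12 libraries in 1 fit (4), while the medians of these fits lay between -1.36 and -1.57. Cenpa, the centromere histone (chromosome 5, 30666777 to 30674830), was at 59.2 and 26.4 CPM in anagen KO and 9.23, 7.74, 6.27 and 3.76 CPM in telogen KO, a log2 ratio of telogen to anagen of -2.58 ± 0.36 (edgeR adjusted p = 0.000849), and was called without each of the 6 libraries. Birc5 (survivin, -2.02), Ccnb2 (cyclin B2, -1.98), Cdca8 (borealin, -1.77), Nuf2 of the kinetochore (-1.75), Ccnb1 (cyclin B1, -1.75), the ubiquitin-conjugating enzyme Ube2c (-1.68), the kinase Aurkb (-1.67), Ccna2 (cyclin A2, -1.63), Cdk1 (-1.63), Cdc20 (-1.59) and the spindle factor Tpx2 (-1.32) fell too. Each of these 11 lost its call without anagen KO replicate 1 (edgeR adjusted p of 0.291 for Birc5 to 0.884 for Ccna2).

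Mki67, which encodes Ki-67 (chromosome 7, 135689784 to 135716361), did not pass. It was at 162 and 34.1 CPM in anagen KO and 46.5, 48.7, 48.0 and 50 CPM in telogen KO (log2 fold change -0.97 ± 0.47, edgeR adjusted p = 0.168). The telogen libraries were close to each other and lay between the anagen libraries. In WT it was at 84.1, 27 and 12.9 CPM in anagen and 8.58, 5.66 and 8.49 CPM in telogen. Of 26 DNA replication genes, only the helicase subunit Mcm5 was lower by edgeR (-1.20 ± 0.34), 2 by DESeq2 and 5 at an unadjusted p under 0.05 (median -0.71, with 23 negative). The call for Mcm5 was lost without anagen KO replicate 1 (edgeR adjusted p = 0.569) or telogen KO replicate 1, 3 or 5. Among 13 G1 regulators, Cdk4 fell by 1.49, from 223 and 229.8 to 63.0, 106, 57.2 and 91.4 CPM, and cyclin D2 (Ccnd2) rose by 0.81, the latter lost without any 1 of 5 libraries (edgeR adjusted p of 0.0520 to 0.252). Of 13 cell cycle inhibitors, Cdkn2b (p15) fell, from 10.4 and 21.2 to 0.932, 3.29, 2.43 and 1.5 CPM (-2.89 ± 0.50, edgeR adjusted p = 0.00293). Cdkn1a (p21, 0.49) and Cdkn1c (p57, 0.42) did not pass.

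**Figure D5:**
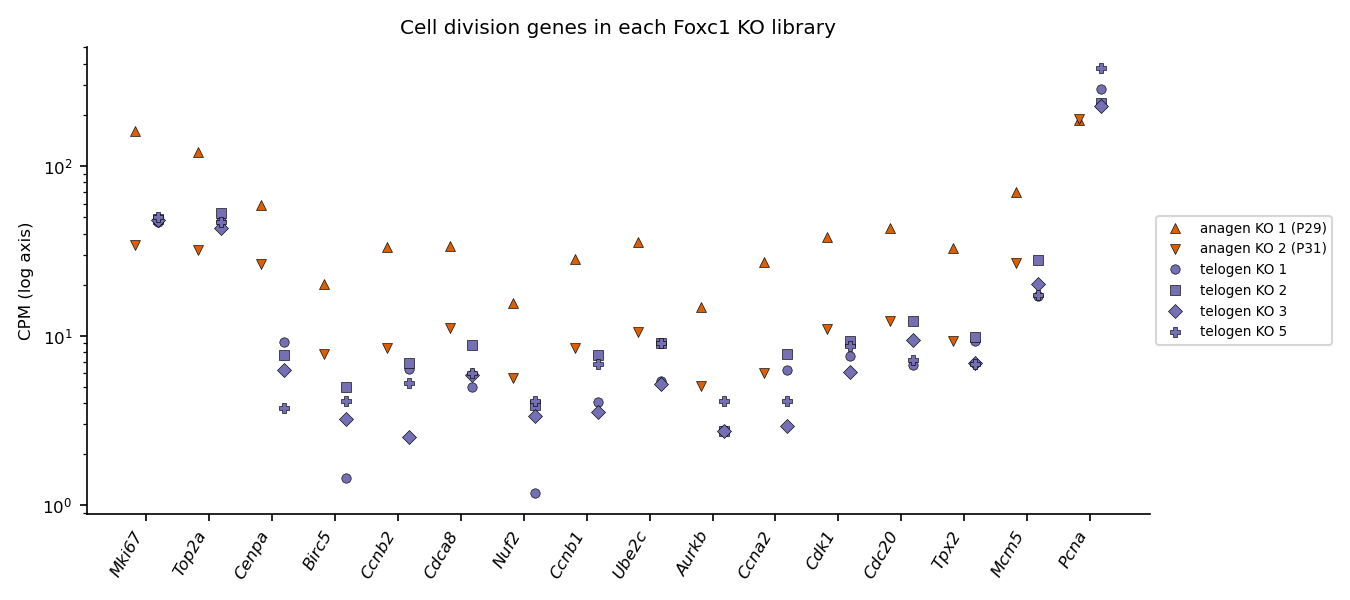
CPM on a log axis of 14 mitosis genes and the replication genes Mcm5 and Pcna in each of the 6 KO libraries, anagen in orange (P29 pointing up, P31 pointing down) and telogen in purple. The P29 library is the highest for 15 of the 16 genes, the exception being Pcna, and the P31 library lies near the telogen libraries for most of them.

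Some promoters of the mitosis list hold letters by which cell cycle genes are known. The 3 shown belong to genes that fell and hold both of the motifs named next. The cell cycle homology region TTTGAA and the CCAAT box are bound in such promoters by the DREAM and MuvB complexes and by NF-Y. Both strands were searched over the 250 bases before the start of each gene in RefSeq (build GRCm38.p6), and 26 of the 29 genes matched. Of these, 9 held both TTTGAA and CCAAT (34.6%), against 5.09% of 9899 tested genes with a promoter in that table. CCAAT, with or without TTTGAA, was held by 19 (73.1%, against 40.6%) and TTTGAA, with or without CCAAT, by 10 (38.5%, against 12.8%). Among the 10 matched genes that fell, 4 held both. A match is a description of letters and not of binding. Capitals mark TTTGAA and CCAAT, or ATTGG where CCAAT is on the other strand. Each sequence runs 5′ to 3′ on the gene's own strand, here the minus strand for all 3, and ends at the first base before the gene in GENCODE M21 or RefSeq, whichever comes first.
Ccnb2, chr9:70421555-70421804: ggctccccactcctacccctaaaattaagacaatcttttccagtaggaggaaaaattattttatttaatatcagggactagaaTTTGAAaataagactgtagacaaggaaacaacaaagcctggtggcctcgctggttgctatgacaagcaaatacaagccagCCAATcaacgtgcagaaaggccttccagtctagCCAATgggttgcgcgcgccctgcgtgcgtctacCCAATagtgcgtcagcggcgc
Cdc20, chr4:118437353-118437593: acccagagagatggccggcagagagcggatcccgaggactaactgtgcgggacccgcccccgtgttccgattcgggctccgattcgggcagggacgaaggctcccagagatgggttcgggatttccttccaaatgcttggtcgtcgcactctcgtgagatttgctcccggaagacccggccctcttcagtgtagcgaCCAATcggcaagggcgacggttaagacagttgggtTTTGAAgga
Cdk1, chr10:69352939-69353162: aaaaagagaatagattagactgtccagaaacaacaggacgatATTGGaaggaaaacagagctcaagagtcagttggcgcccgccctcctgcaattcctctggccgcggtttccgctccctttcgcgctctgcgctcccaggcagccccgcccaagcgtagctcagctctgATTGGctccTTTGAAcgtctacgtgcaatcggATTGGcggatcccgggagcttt

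The same search was made for GTAAACA, a core motif of forkhead factors, in the 17 genes whose stage change was higher in KO than in WT. Of 13 that matched, 1 held it, Col6a1 (7.69%, against 2.62% of tested genes). GTAAACA was held by the same share of the mitosis genes (2 of 26) and of the clock genes (1 of 13). Of the 13 genes searched here, 4 held CACGTG, an E-box motif (30.8%, against 9.97%), named after its value was seen. The Col6a1 stretch is shown as the one of this set with GTAAACA, on the minus strand, with the motif in capitals. The share of GTAAACA among the 13 rests on 1 gene, and an absent match says only that these letters are not in the window.
Col6a1, chr10:76726169-76726294: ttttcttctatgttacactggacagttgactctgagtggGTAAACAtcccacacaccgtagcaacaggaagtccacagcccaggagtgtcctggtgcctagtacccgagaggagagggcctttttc

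Several genes of the lower follicle fell, and several of the cornifying epidermis rose. Of 13 inner root sheath and hair shaft genes tested, 3 were lower (median -2.45), against 13 lower of 16 in WT (median -7.77). The genes tested thus differed between the genotypes, and a gene can pass the expression filter through its high group alone. Summed over 4 hair shaft and sheath markers, anagen KO held 28.4 and 81.5 CPM and telogen KO 20.4 to 46.9 CPM. None of these 4 was called. For the list, the difference between KO and WT passed for no member by edgeR. Of 17 members tested for it, 1 passed by DESeq2 and 3 had an unadjusted p under 0.05. The peptidylarginine deiminase Padi3, which modifies sheath proteins, fell from 19.8 and 15.4 to 0, 0.890, 0.101 and 0 CPM (-5.87 ± 0.79, edgeR adjusted p = 0.000801), and Padi4 had 376 counts in anagen KO and 3 in telogen KO. Krt28, a sheath keratin, fell by 3.53, a call lost without anagen KO replicate 2 (edgeR adjusted p = 0.115) or telogen KO replicate 3 (0.0506). Of 12 hair germ and matrix genes, 2 were higher and 3 lower, with the homeobox genes Dlx3 (-2.02, from 44.4 and 34.0 to 14, 7.74, 8.5 and 6.77 CPM) and Hoxc13 (-1.55) among the falls. Of 9 genes of the companion layer and inner bulge, 3 rose, among them Krt6a (1.54), and 3 fell, among them Krt17 (-1.59) and Krt75 (-1.53). Each of these keratin calls was lost without 1 or both anagen KO libraries (edgeR adjusted p of 0.0860 to 0.237). In the isthmus and infundibulum list, 3 of 10 rose, among them Lgr6 and Gata6 (2.51, lost without anagen KO replicate 1, edgeR adjusted p = 0.0687), and Lrig1, a stem cell marker of the junctional zone, fell from 379 and 434 to 83.2, 121, 75.1 and 69.6 CPM (-2.19 ± 0.23, edgeR adjusted p = 0.000145).

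Of 23 epidermal differentiation genes, 9 were higher and 2 lower in KO (median 1.38), against 2 higher in WT (median 0.43). The difference was called for none of them by edgeR, for 1 by DESeq2 and for 3 higher and 1 lower at an unadjusted p under 0.05. Dermokine (Dmkn) was at 292 and 377 CPM in anagen KO and 1634, 1396, 1387 and 2012 CPM in telogen KO, with a log2 ratio of telogen to anagen of 2.32 ± 0.32 (edgeR adjusted p = 0.000794) and a difference from WT that did not pass (0.0748). Krtdap (2.15), the envelope protein loricrin (Lor, 2.56) and the desmosomal cadherins Dsc1 (2.25) and Dsg1a (1.60) rose, as did Sprr1b (1.69). Involucrin (Ivl), also a cornified envelope protein, went the other way, from 102 and 168 to 3.30, 2.67, 7.69 and 2.63 CPM (-4.92 ± 0.46, edgeR adjusted p = 0.000150), and Tgm1 fell by 1.18. Loricrin lost its call without anagen KO replicate 2 (edgeR adjusted p = 0.0604), Dsg1a without either anagen KO library (0.0898 and 0.109), and Tgm1 without any 1 of 5 libraries (0.0776 to 0.888). The 4 markers of layers above the basal epidermis, of which 1 rose and 1 fell, summed to 239 and 627 CPM in anagen KO, 724 to 4748 CPM in telogen KO, 450 to 778 CPM in anagen WT and 123 to 1927 CPM in telogen WT, with none at 0 in every library of a group. Their part in these rises was not tested, and without telogen KO replicate 2, which had the highest sum, 11 members were higher (median 1.21). Without anagen KO replicate 1, 5 members were higher (median 1.20), as were 5 with all 12 libraries in 1 fit (median 1.39).

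Among junction genes the desmosomal cadherin Dsg1b and the claudin Cldn4 rose most, and basement membrane genes went both ways. Of 20 cell-cell adhesion genes, 9 were higher and 3 lower (median 0.90), and 11 and 2 in WT (median 0.76). The desmosomal cadherin Dsg1b rose from 8.78 and 8.96 to 121, 50.4, 162 and 96.3 CPM (3.69 ± 0.53, edgeR adjusted p = 0.00151) and the tight junction claudin Cldn4 from 55.0 and 74.2 to 209.5, 289, 286 and 192 CPM (1.96 ± 0.29, edgeR adjusted p = 0.00127). Both groups were well apart. Dsg3 (1.84), Cldn1 (1.59), occludin (Ocln, 1.39), Tjp1 (1.15), desmoplakin (Dsp, 1.14), Dsc3 (1.06) and the alpha-catenin Ctnna1 (0.94) rose by less. Each of these 7 lost its call without anagen KO replicate 2 (edgeR adjusted p of 0.0626 to 0.326), and without that library 2 members of the list were called higher and 2 lower. P-cadherin (Cdh3), which marks the hair germ, fell from 285 and 381 to 129, 135, 135 and 76.7 CPM, by 1.44. Dsg2 (-1.22) and the nectin gene Pvrl4 (-1.80, lost without either anagen KO library, edgeR adjusted p = 0.0671 and 0.150) fell as well, and E-cadherin (Cdh1, 0.80) did not pass.

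Of 29 cell-matrix genes, 3 were higher and 7 lower (median 0.45), against 9 and 4 in WT (median 0.41). Col4a1 and Col4a2, neighbouring genes on chromosome 8 that encode the main chains of basement membrane collagen, fell together. Col4a1 was at 1079.8 and 765 CPM in anagen KO and 96.6, 94.5, 109 and 118 CPM in telogen KO (-3.09 ± 0.26, edgeR adjusted p = 3.96e-05), and Col4a2 at 695 and 661 and 76.9, 81.6, 79.8 and 90.6 CPM (-3.0 ± 0.23, 1.90e-05). In WT their stage changes were -2.0 and -1.79, and the differences did not pass (edgeR adjusted p = 0.834 and 0.624). Tenascin C (Tnc) fell from 3289 and 1669 to 333, 220.4, 580.1 and 265 CPM (-2.74), and Fn1 (-2.16), Itga1 (-2.21), Itgb5 (-0.87) and Itga3 (-0.86) fell as well. The laminin chain Lamb3, part of the anchorage of keratinocytes, rose from 199 and 188 to 791, 773, 741 and 594 CPM (1.95 ± 0.26, edgeR adjusted p = 0.000722), as did the anchoring fibril collagen Col7a1 (1.10) and Egfl6 (1.62). Calls for Fn1, Itga3, Col7a1 and Egfl6 were lost without anagen KO replicate 1 (edgeR adjusted p of 0.0791 to 0.321) and that for Itgb5 without replicate 2 (0.0983).

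Of 25 nuclear genes of the respiratory chain, 16 were lower in KO, all 25 had negative log2 fold changes, and the median was -0.89. WT had 19 lower (median -1.05), and no difference passed by edgeR, by DESeq2 or at an unadjusted p under 0.05. The complex I subunit Ndufa4 fell from 112 and 64.7 to 27, 30.5, 33.2 and 33.1 CPM (-1.47 ± 0.26, edgeR adjusted p = 0.00341), Cox5a of complex IV from 110.1 and 92.0 to 33.5, 47.0, 35.2 and 51.2 CPM (-1.25 ± 0.23, 0.00447), and Cox6c (-1.18) and Cyc1 of complex III (-1.08) likewise. All 4 were called without each of the 6 libraries. The list sum was 4834 and 4282 CPM in anagen KO and 2273 to 3307 CPM in telogen KO, where replicate 2 was the highest. The count fell to 8 without either anagen KO library and to 10 without telogen KO replicate 1 or 3, and no member passed a test against a 2-fold change. Of 10 genes of the mitochondrial genome, none was higher or lower in KO by edgeR, by DESeq2 or at an unadjusted p under 0.05 (median 0.10). Of 35 cytoplasmic ribosomal protein genes, 1 was higher and 2 lower in KO, while 23 were lower in WT. The difference passed for none by edgeR, by DESeq2 or at an unadjusted p under 0.05. The median was -0.39 in KO, with 32 negative, and -0.72 in WT. With size factors of DESeq2's kind in edgeR, 14 respiratory chain genes, 10 mitosis genes and no ribosomal protein gene were lower.

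Of 18 replication-dependent histone genes, 6 passed the expression filter in KO, which a gene can pass through its high group alone, and these 6 were lower in telogen. Their mRNAs end in a stem-loop and normally lack the poly(A) tail by which these libraries were selected. Hist1h1c was at 245 and 1222 CPM in anagen KO and 9.06, 16.8, 11.2 and 10.9 CPM in telogen KO (-5.90 ± 0.55, edgeR adjusted p = 0.000200), and Hist1h2bc at 43.0 and 165 and 2.12, 2.94, 2.43 and 4.89 CPM (-5.17). The list summed to 301 CPM in anagen KO replicate 1 and 1442 CPM in replicate 2, and to 11.3 to 20.8 CPM in telogen KO. Without anagen KO replicate 2, 3 members were lower. It was the higher anagen library here and the lower of the pair for mitosis genes.

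Among smaller lists, the hexokinase Hk2 rose from 123 and 97.0 to 887, 534, 783 and 956 CPM (2.91 ± 0.37, edgeR adjusted p = 0.000449), 1 of 2 rises and 1 fall among 15 hypoxia and glycolysis genes. Of 14 clock genes, 4 rose and 2 fell (median 0.95). Cry1, a repressor of the clock, rose from 16.7 and 19.7 to 62.4, 56.8, 61.8 and 65.4 CPM (1.81 ± 0.25, edgeR adjusted p = 0.000749), and Clock (1.28), Arntl (1.06) and Nr1d2 (1.0) rose, while Bhlhe41 (-2.41) and Per1 (-1.08) fell. The call for each of these 5 was lost without anagen KO replicate 2 (edgeR adjusted p of 0.121 to 0.610), and the labels do not give the hour of collection. Of 19 interferon response genes, 2 fell, among them Irf7 (from 38.3 and 51.5 to 6.78, 8.54, 5.87 and 6.39 CPM, -2.67), and the proteasome subunit Psmb8 rose (1.15), the last lost without anagen KO replicate 2 (edgeR adjusted p = 0.137). Of 19 sterol synthesis genes, 1 rose and 2 fell, among them Dhcr7 (-1.14), lost without anagen KO replicate 1 (edgeR adjusted p = 0.0568). Of 10 sebaceous gland genes, Dgat2 rose (1.60) and Mgst1 fell (-1.66). Of 24 immediate early and stress genes, which respond to tissue dissociation, 2 rose, Cyr61 (1.73) and Hspa1b (1.25), and 5 fell, among them Btg2 (-1.97), Egr2 (-1.38) and Ier3 (-1.20). This list depended on the anagen library: it summed to 21155 CPM in replicate 1 and 55790 CPM in replicate 2, against 30816 to 39877 CPM in telogen KO. The calls for Cyr61 and Hspa1b were lost without replicate 1 (edgeR adjusted p = 0.0808 and 0.231) and those for Btg2 and Ier3 without replicate 2 (0.237 and 0.0734). The list had 8 lower and no higher members without replicate 1 (median -1.02) and 1 lower and 4 higher without replicate 2 (median 0.69), and 3 lower without telogen KO replicate 1, 3 or 5.

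Some markers of other cell types moved between the stages. Mitf, a transcription factor of melanocytes that other cells also express, rose from 2.31 and 3.91 to 73.6, 66.9, 55.8 and 62.8 CPM (4.42 ± 0.32, edgeR adjusted p = 1.69e-05), the single call among 6 melanocyte genes (median -0.18). The 7 melanocyte markers summed to 27.8 and 33.9 CPM in anagen KO and 73.3 to 108 CPM in telogen KO. Without Mitf the other 6 summed to 25.5 and 30.0 CPM in anagen KO and to 34.1, 15.9, 17.5 and 20.7 CPM in telogen KO, where 3 of 4 libraries were below both anagen libraries. Of 9 endothelial genes, 3 rose (median 1.58), Pecam1 (1.86), Flt1 (2.49) and Vwf (2.28), each lost without anagen KO replicate 1 (edgeR adjusted p of 0.0643 to 0.202), and the 6 markers summed to 7.29 and 12.5 CPM in anagen KO and 18 to 40.0 CPM in telogen KO. Of 13 fibroblast and dermal papilla genes, Col6a1 and decorin (Dcn, 1.67) rose and Corin fell (87 counts in anagen KO and 1 in telogen KO), the calls for Dcn and Corin being lost without anagen KO replicate 2 (edgeR adjusted p = 0.0753 and 0.123). The 7 markers of that list, 1 of which rose, summed to 436 to 751 CPM in anagen KO, 520 to 5106 CPM in telogen KO, 298 to 882 CPM in anagen WT and 277 to 1580 CPM in telogen WT, and their part in the rise of Col6a1 was not tested. The smooth muscle genes Acta2, from 207 and 66.8 to 14.1, 9.96, 11.6 and 9.03 CPM (-3.55 ± 0.39, edgeR adjusted p = 0.000277), and Tagln (-3.95) fell and Myh11 rose (1.61, lost without anagen KO replicate 1, edgeR adjusted p = 0.0641), while 4 smooth muscle markers summed to 450 and 142 CPM in anagen KO and 34.6 to 56.1 CPM in telogen KO. S100b, a Schwann cell gene that other cells also express, fell from 10.1 and 8.71 to 1.27, 0.801, 0.911 and 0 CPM, the single call among 4 Schwann cell and adipocyte genes. None of 13 immune genes was called by edgeR, with 1 higher and 1 lower at an unadjusted p under 0.05 and 1 higher by DESeq2.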

How the data were processed

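RNA-seq gene counts of 12 sorted stem cell samples were used, 6 of them from knockout mice. Per the labels' protocols, RNA was selected by its poly(A) tail and the library kit keeps strand. The authors deposited whole-number gene counts in 1 table per stage. The submitters' processing notes name TopHat2, HTSeq and mm10, and versions and the strand option of counting are not given in the sources used here, so reads of overlapping and antisense genes may not be separable. The 38803 genes of the anagen table and 37958 of the telogen table were joined by name after leaving out 5 tally lines (among them reads with more than 1 alignment, 31.1 to 32.8% of counts in anagen KO), 3 broken lines and 27 names turned into dates. This left 37931 genes. The 872 genes of the anagen table alone, 24 of them in the gene lists, were not analysed.

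Libraries held 2658749 to 52692280 counts over these genes, so low genes are least precise in telogen KO replicate 5. No 2 KO libraries of a group agreed within sampling noise (chi-square per degree of freedom of 23.8 to 169), so none was a copy. Tests used edgeR 4.0.16 in R 4.3.3: TMM scaling, filterByExpr with a minimum count of 10, robust quasi-likelihood fits and Benjamini-Hochberg adjustment over all genes tested, at a threshold of 0.05, with standard errors derived from the fold change and the F statistic. The KO stage change was fitted on the 6 KO libraries, the WT one on the 6 WT libraries, and their difference on all 12. The procedure was tested on simulated data with the same spread for every gene and no difference between tables. That checks the code and does not test the calls made here. Alternatives were DESeq2 1.42.0, its size factors in edgeR (called RLE), no filter, anagen libraries thinned to the telogen depth, all 12 libraries in 1 fit, a test against a 2-fold change, each library left out, the 2 libraries with unequal day labels left out and, chosen after seeing the data, protein-coding genes alone and a replicate block for the difference.

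The members and gene lists were chosen with earlier results of these data known. Named genes were the 12 largest called changes per direction with a mean of at least 5 CPM in 1 group and no overlap between groups, the 6 largest called differences per direction, a set of 36 genes (cycle, stem cell and signalling regulators), and the 4 called members of lowest p in each list (2 if none was called). The first 2 sets skip Foxc1, genes linked to sex and provisional symbols. Any other list member or difference gene named was chosen after its values were seen. Some genes are not reported here. Promoters and gene positions came from RefSeq and GENCODE M21 tables. Floors are 3 counts over a group, and intervals cover counting error only.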

Additional observations from a re-analysis of the deposited data

Results flagged for a closer look

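In 15 of 144 named genes, 1 of the 4 telogen KO libraries lay far from the other 3, its gap to the nearest being more than 0.829 of the group's range. Chance flags about 1 in 20 groups. Replicate 2 was the library concerned in 7 of them and was the highest each time, among them Ly6a at 56.0 CPM (others from 6.68), Krtdap at 326 CPM (others from 145), Bmp4 at 12.8 CPM (others from 0.508), Btg2 at 702 CPM (others from 403), Egr2 at 143 CPM (others from 89.9) and Psmb8 at 64.8 CPM (others from 38.6). This library also had the highest sums of fibroblast and suprabasal markers and was the only male one of the KO libraries. In replicate 3, Bmpr2 (97.7 CPM) and Ivl (7.69 CPM) were highest and Krt75 (2.83 CPM) lowest. In replicate 5, which had the fewest counts, Grem1 (494 CPM), Nrip3 (74.1 CPM) and mt-Rnr2 (4364 CPM) were highest and Cdh3 (76.7 CPM) lowest. Myoc was highest in replicate 1, at 211 CPM.

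For 19 genes the stage change itself differed between KO and WT by edgeR. Among them, the differences, KO minus WT on the log2 scale, were 4.99 for Tgm5, 4.15 for Krt24, 4.06 for Wif1, 3.57 for Serpinb11, 3.50 for Chat, 3.17 for Col6a1 and 2.99 for Ccdc88c. They were 2.75 for Lgr6, 2.71 for Ctnnd2, 2.65 for Moxd1, 2.55 for Vwa2, 2.55 for Mfap3l, 2.29 for Nrip3, 2.19 for Sms and 1.93 for Pros1. Enc1 (-2.39) and Ctsl (-1.86) had the opposite sign. The edgeR adjusted p ranged from 0.00585 for Tgm5 to 0.0438 for Mfap3l.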

How the results depend on the processing

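No called named gene changed direction under any alternative run, but counts of calls changed. Against a 2-fold change, edgeR called 327 genes higher and 366 lower in KO, and 102 and 168 in WT. Leaving out 1 library gave 544 to 1771 higher and 838 to 1869 lower genes in KO. The low ends came without anagen KO replicate 2, and without replicate 1 the counts were 682 and 932. In WT the ranges were 1055 to 1630 and 1257 to 1699, with 1120 and 1275 without telogen replicate 3 and the low ends without replicate 4. The other alternatives kept the KO and WT counts within 1.5 times.

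The difference between KO and WT was the least stable result. DESeq2 called 133 genes higher and 18 lower, edgeR without a filter 316 and 93, and edgeR without both libraries of unequal day labels 6 and 0 (295 lower at an unadjusted p under 0.05). Leaving out 1 library gave 0 to 51 higher and 0 to 4 lower genes, both high ends without anagen WT replicate 1. Higher genes numbered 8 and 7 without telogen KO replicates 3 and 5, and 7, 2 and 3 without telogen WT replicates 1, 3 and 4. None of the 19 genes was called without each of the 12 libraries. Wif1 and Tgm5 were lost only without anagen KO replicate 1 (edgeR adjusted p = 0.0518 for both) or 2 (0.0747 for both).

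For the stage changes themselves no pairs exist, since anagen titles carry days and no replicate numbers. For KO against WT, 4 pairs share a title day in anagen or a replicate number in telogen. In anagen, the 2 KO libraries deviate from their mean by equal and opposite amounts, so the P29 and P31 pairs are not independent. Deviations from the group means correlated at 0.50 (P29), 0.41 (P31), 0.13 (telogen replicates 1) and 0.07 (replicates 3) over 13193 genes. Each of these KO libraries correlated best with its own partner, but telogen WT replicate 3 did so with KO replicate 5 (0.13), and the labels name no shared batch, so the numbers were not taken to pair the samples (which asked for over 0.1 in every pair). With this replicate block, chosen after seeing the data and leaving 2 residual degrees of freedom, edgeR called 0 genes higher and 0 lower (700 and 372 at an unadjusted p under 0.05, DESeq2 not run with it), and the 19 genes kept their direction, with the lowest edgeR adjusted p among them 0.0504 for Wif1. Depth limits genes of few counts, most of all in telogen KO replicate 5, the smallest library. With 2 anagen KO libraries, 1 of them decides many calls. Stage and table cannot be told apart.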

Other observations

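Gene families outside the lists were looked at by the stem of their symbols, and those named here were chosen after their values were seen, so their counts are descriptions beside the 10.2% higher and 12% lower over all genes. Subunits of the mitochondrial ribosome's large part, which translates the mitochondrial genome's messages, had 15 lower and no higher member of 46 tested in KO by edgeR (median log2 fold change -0.80), and 22 lower in WT (median -0.77). Mrpl34 (-2.01), Mrpl33 (-1.51) and Mrpl15 (-1.42) were among them. Of 14 Klf genes, a family of zinc finger transcription factors, 5 were higher and 1 lower (median 0.89), with Klf8 (2.23), Klf3 (2.04) and Klf5 (1.70) rising and Klf10 (-1.11) falling. WT had 5 higher.

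Collagen genes moved in both directions, 5 higher and 7 lower of 28 gene symbols that start with Col, one of the 5 being Col4a3bp, which encodes no collagen. Col8a2 (4.27) and Col6a2 (2.81), the partner chain of Col6a1 in collagen VI, rose, while Col16a1 (-3.66) and Col18a1 (-1.83) fell. Of 19 dual-specificity phosphatase genes, which switch off MAP kinases, 5 were lower in KO (median -0.51), with Dusp10 (-2.80) and Dusp4 (-2.61) changing more than Dusp6 (-1.31). In WT their fitted changes were -1.99, -0.83 and -0.50, and none of these differences passed by edgeR. The pump genes Atp1b3 (-1.95), a subunit of the sodium pump, and Atp12a (-4.97), a proton pump, fell. Of 9 melanocyte genes tested for the difference over all 12 libraries, the stage change was higher in KO than in WT for 6 at an unadjusted p under 0.05, for 4 by DESeq2 and for none by edgeR. The median stage change was -2.83 over the 6 tested in WT and -0.18 over the 6 tested in KO, which were not all the same genes.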
